A study of Mus musculus with 8 samples.

Results

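The genes described here encode 5 groups of enzymes that modify foreign compounds and reactive aldehydes: glutathione transferases (Gst), UDP-glucuronosyltransferases (Ugt), sulfotransferases (Sult), cytochrome P450 enzymes of families 1 to 4 (Cyp) and aldehyde dehydrogenases (Aldh). They were taken by a rule on gene symbols that uses no measured value, though the families were chosen with earlier results of these data known. The rule took the Gst classes a, m, k, o, p, t and z, Ugt1 and Ugt2, Cyp1 to Cyp4, every Aldh gene and Sult1 to Sult5. This gave 163 of the 24346 gene symbols of the series, 4 of them annotated as Cyp pseudogenes and 1 an opposite-strand transcript, Cyp4x1os. A mean of at least 1 FPKM (fragments mapped to a gene, corrected for transcript length and library size) over the 8 libraries was reached by 72 of them, or 44.2%, against 47.4% of all genes.

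RNA came from colon epithelial cells of untreated C57BL/6J mice of 4 genotypes, with 1 male and 1 female library each: wild-type, St6galnac6-/-, B3galt5D116A and B3gnt7-/-. St6galnac6 is a sialyltransferase, B3galt5 a galactosyltransferase, here with an amino acid substitution, and B3gnt7 an N-acetylglucosaminyltransferase. All 3 build glycans such as those on intestinal mucins. The labels give no age, do not say whether a library holds 1 animal or a pool, and do not say which part of a gene is deleted, so p-values here speak of the scatter between libraries alone, part of which may be technical.

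In this enzyme system the P450 enzymes of the endoplasmic reticulum usually act first and add or expose an oxygen group. Conjugating enzymes then attach glutathione, glucuronic acid or sulfate, which makes the product more soluble and ready for export. Aldehyde dehydrogenases oxidise aldehydes from lipid peroxidation, alcohol, amino acids and retinal. The colon epithelium is the layer that meets plant compounds, drugs and bacterial products from the gut lumen, and several of these genes are known targets of the sensors Ahr, Nr1i2 (PXR), Nr1i3 (CAR) and Nfe2l2 (Nrf2).

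The FPKM sums of the libraries ran from 518482 to 639537. Depth relative to the wild-type male library, estimated from steps in the values below 0.15 FPKM, ran from 1.05 to 1.45 in the other libraries, with both wild-type libraries the shallowest. It is a rough measure, since 27.7% to 33.9% of the genes used lay within 0.01 of it on the log2 scale. No counts were given, so counting intervals are left out, and a listed 0 can be a failed estimate as well as a true absence of reads. In the St6galnac6-/- male and female St6galnac6 itself was at 218 and 232 FPKM, against 343 to 495 FPKM in the others. B3gnt7 was at 68.8 and 142 FPKM in B3gnt7-/- against 154 to 266 FPKM. The level of B3galt5, 93.1 to 162 FPKM, does not check a substitution. Xist was above 42 FPKM in every female library and under 0.04 FPKM in every male one. Of the 10 epithelial markers all were detected (Epcam at 864 to 953 FPKM). The 12 stromal, muscle and endothelial markers summed to 4.11 to 5.51 FPKM in 7 libraries and to 26.9 FPKM in the B3gnt7-/- female library, where the collagen-binding proteoglycan Dcn was at 18.9 FPKM. Of these 12, 2 reached a mean of 1 FPKM. The 10 macrophage markers summed to 23.1 to 35.2 FPKM, most of it Cd14, and the 12 lymphocyte markers to 5.80 to 16.9 FPKM. The 10 goblet cell markers summed to 7283 and 7008 FPKM in wild-type and to 9593 to 12674 FPKM in the mutants, and none of them passed the test described below. Among 8 liver and pancreas markers 4 reached 1 FPKM, and of the marker lists only the transthyretin gene Ttr passed: it rose in B3galt5D116A from 22.3 and 19.9 to 49.6 and 41.04 FPKM (log2 1.06, adjusted p = 0.0458) and in the mean of the mutants (log2 0.78, adjusted p = 0.047).

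Of the 85 cytochrome P450 genes 27 (31.8%) reached a mean of 1 FPKM. Of 50 Cyp2 genes, 19 did so and 14 were listed at 0 in every library. Cyp2c55, which oxidises arachidonic acid and is known from the colon, had the highest level of all members, a mean of 1327 FPKM, and made up 72.9% of the summed Cyp2 FPKM. Its neighbour Cyp2c65 followed at 139 FPKM, then Cyp2d34 at 101.2, Cyp2s1 at 64.3 and Cyp2c68 at 56.6 FPKM. The Cyp3 family rested on Cyp3a13 at 58.03 FPKM, while Cyp3a11, the main Cyp3a enzyme of mouse liver, was at or under 0.0768 FPKM in every library. Of 23 Cyp4 genes 7 reached 1 FPKM, led by Cyp4f14 (64.6 FPKM), which inactivates leukotriene B4, Cyp4f40 (50.6 FPKM) and Cyp4f13 (37.6 FPKM). No Cyp4a gene reached 1 FPKM, although these are known targets of the fatty acid sensor Ppara, itself at 7.93 FPKM.

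None of the 3 Cyp1 genes reached 1 FPKM. Cyp1a1, the best known target of the aryl hydrocarbon receptor Ahr, was listed at 0 in 6 libraries. The St6galnac6-/- and B3galt5D116A females gave 0.0314 and 0.0339 FPKM. Cyp1a2 and Cyp1b1 were listed at 0 in all 8. Ahr was at 4.15 FPKM on average, its partner Arnt at 13.98 FPKM and the Ahr target Tiparp at 10.3 FPKM. Cyp2e1, an ethanol oxidiser of liver, stayed at 0.0959 to 0.471 FPKM, and the liver P450 genes Cyp2b10 and Cyp2c29 also stayed under 1 FPKM.

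Glutathione transferases were used more broadly. All 7 Gstm genes, both Gstp genes and the single Gstk and Gstz genes reached 1 FPKM, as did 3 of 4 Gsta and 3 of 4 Gstt genes. The highest was Gsto1, which reduces dehydroascorbate and mixed disulfides, at 461 FPKM, followed by Gstm1 (267 FPKM), Gstp1 (169 FPKM), Gstm2 (154 FPKM) and Gstk1 (109.8 FPKM), a transferase of mitochondria and peroxisomes. Gstm3 was at 85.3, Gstp2 at 60.1, Gsta4, which clears hydroxynonenal, at 72.3, Gsta1 at 12.99, and Gstz1 of tyrosine breakdown at 25.3 FPKM. The 3 Gstt genes above 1 FPKM were within 20 FPKM of each other, Gstt3 at 46.6, Gstt2 at 33.03 and Gstt1 at 29.8 FPKM.

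Among glucuronosyltransferases 3 of 8 Ugt1 and 4 of 10 Ugt2 genes reached 1 FPKM. Ugt2b34 (216 FPKM) held 84.1% of the Ugt2 sum, ahead of Ugt2b5 (24.3) and Ugt2b35 (13.4). Ugt1a7c (183 FPKM) led Ugt1, with Ugt1a6a (56.7 FPKM), which acts on phenols, and Ugt1a1 (42.1 FPKM), the bilirubin enzyme. Of 18 sulfotransferases 5 were above the limit: Sult1a1 (378 FPKM), a phenol sulfotransferase, Sult1d1 (179), Sult1b1 (76.8), Sult1c2 (63.3) and Sult2b1 (35.1), which sulfates cholesterol. All 8 Sult2a genes, which sulfate bile acids and steroids in liver, were listed at 0 in every library, as was the oestrogen sulfotransferase Sult1e1.

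Of 21 aldehyde dehydrogenases 15 (71.4%) reached 1 FPKM, against 18 of the 21 Gst genes (85.7%). Mitochondrial Aldh2, the main acetaldehyde oxidiser, led at 332 FPKM, then the retinal dehydrogenase Aldh1a1 at 165 and mitochondrial Aldh1b1 at 139.7 FPKM. Aldh1l1 of folate metabolism (49.7 FPKM), the fatty aldehyde enzyme Aldh3a2 (48.7 FPKM), Aldh16a1 (43.2 FPKM) and Aldh9a1 (30.7 FPKM) followed. The other retinal dehydrogenases Aldh1a2 and Aldh1a3 averaged 0.435 and 0.821 FPKM. Aldh1a2 was at 1.66 FPKM in the B3gnt7-/- female, the library with the high stromal markers, and at 0.143 to 0.401 FPKM in the other 7.

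**Figure D1:**
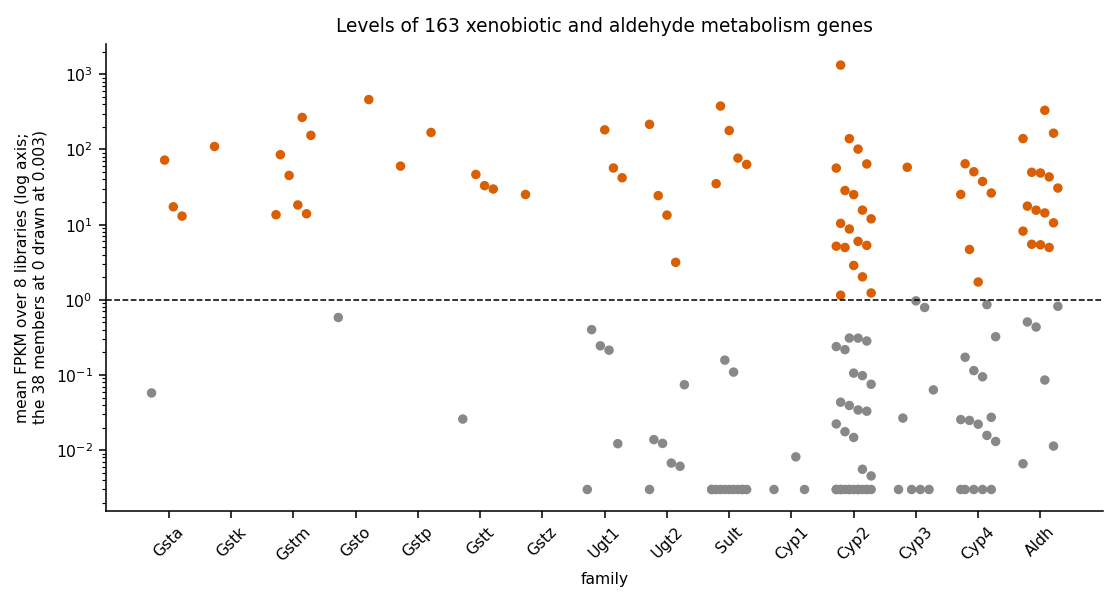
Mean FPKM over the 8 libraries of each of the 163 genes, by family, on a log axis, with the limit of 1 FPKM as a dashed line, members that reach it in orange and the others in grey. Cyp2c55 stands highest, at 1327 FPKM, every Gstm gene lies above the line, and 38 genes listed at 0 in all libraries are drawn at the bottom.

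Among the 72 genes with a mean of 1 FPKM or more, 15 were at 100 FPKM or more, 41 between 10 and 100 FPKM and 16 under 10 FPKM. Their median was 30.3 FPKM, against 12.8 FPKM over all genes that reached the same limit. They also varied more between libraries: their median coefficient of variation over the 8 libraries was 18.6%, against 12.5% for all such genes, and the highest library was a median of 1.67 times the lowest, against 1.46 times. Nearest the limit, Cyp2j9 (1.15 FPKM) and Cyp2r1 (1.23 FPKM), a vitamin D hydroxylase, were just above it, and Cyp3a25 (0.970 FPKM) and Cyp4f41-ps (0.863 FPKM) just below.

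Many of these genes lie in clusters of close copies, so a fragment may fit more than 1 gene. In the GENCODE M21 transcripts of mm10, 19 of the 71 members with a transcript shared 10% or more of their stretches of 50 bases with a transcript of another gene, and 24 shared none. The share was 90.5% for Gsta1, 58.2% for Ugt1a1, 53.7% for Ugt1a7c and 52.1% for Ugt1a6a (which use common last exons), 54.3% for Gstp2, 43.3% for Cyp2c68 and 35.8% for Cyp2d10. It was 18.9% for Gstm1, 24.2% for Aldh3b2, 7.61% for Cyp2d12, 4.13% for Cyp2d22, 0.514% for Cyp2c55, 0.273% for Gsta3 and 0 for Gstt1. Levels of the genes with large shares are uncertain between copies, so sums over a subfamily are given below as well. Such sums do not cover sharing with genes that are not members. Gsta1 shared 75.7% with Gm3776, and Gstm3, with 28.8% shared in all, shared 16.0% with Gm8834.

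The mutants were then compared with wild-type as log2(FPKM + 1), a scale that makes changes of low genes look smaller, with limma over all 11537 genes that reached a mean of 1 FPKM, genotype and sex as terms, and Benjamini-Hochberg adjustment. No member passed an adjusted p of 0.05 in any of 9 comparisons. Over all genes, few passed either: 0.0867% in St6galnac6-/- against wild-type, 0.078% in B3galt5D116A, 0.052% in B3gnt7-/-, and 0.182% for the mean of the 3 mutants. Missing this threshold with 2 libraries a group does not show that levels were alike. For Cyp2c55 the 95% interval of the log2 difference from wild-type was -1.08 to 0.57 in St6galnac6-/-, -0.75 to 0.90 in B3galt5D116A and -0.40 to 1.25 in B3gnt7-/-. For the steadier Gsto1 it was -0.65 to 0.16, -0.34 to 0.47 and -0.61 to 0.20.

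**Figure D2:**
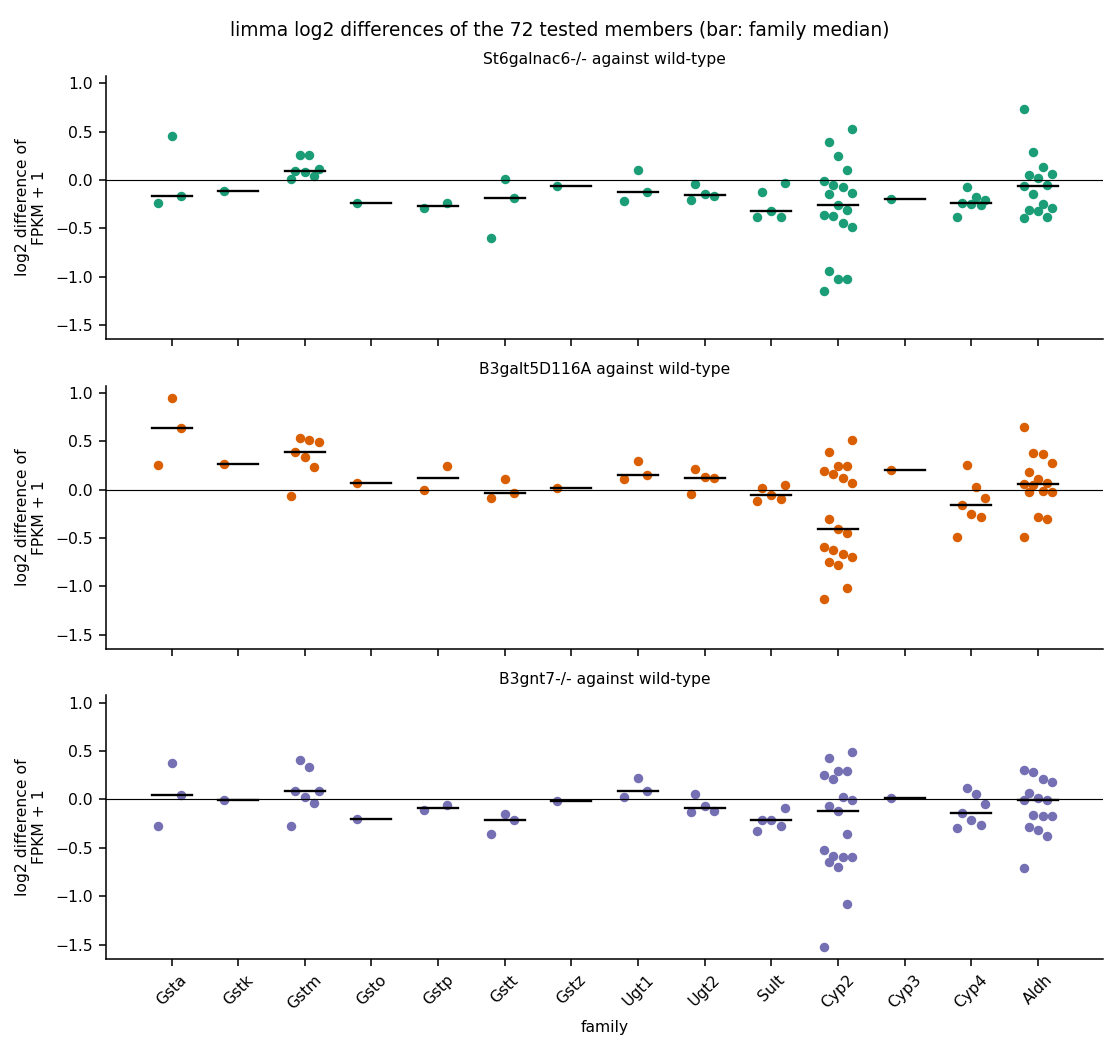
Log2 difference of FPKM + 1 between each mutant and wild-type for the 72 tested members, 1 point per gene, by family, with a bar at the family median. In B3galt5D116A the Gstm genes lie above 0 in 6 of 7 cases and the Cyp2 genes spread from -1.13 to 0.52, and no point passed the test.

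In St6galnac6-/- 52 of 72 members were below wild-type, with a median log2 difference of -0.15 against 0.0030 over all genes tested. At an unadjusted p under 0.05 there were 10 members, or 13.9%, against 9.04% of all genes, 3 of them higher and 7 lower. Both St6galnac6-/- libraries lay below both wild-type libraries for 28 members, or 38.9%, where 23.6% of all genes did, and above them for 8, or 11.1%, where 24.1% of all genes did. Every tested Sult (5), Cyp4 (7) and Ugt2 (4) gene was below wild-type and every Gstm gene (7) above it, by 0.0067 to 0.26 on the log2 scale. The median over members depended on the female library: without it the median was -0.020, and without the male library it was -0.36.

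Cyp2d22, of the P450 subfamily whose human member CYP2D6 oxidises many drugs, had the smallest p in this comparison. It read 12.3 and 14.04 FPKM in wild-type, male and female, against 6.32 and 5.60 FPKM in St6galnac6-/- (log2 -1.02, SE 0.155, adjusted p = 0.108). The groups did not overlap, and both mutant libraries were also the lowest of the 8. Gstt1, a transferase that acts on small halogenated compounds, was at 33.7 and 36.3 FPKM in wild-type against 23.8 and 21.9 FPKM in St6galnac6-/- (log2 -0.59, SE 0.114, adjusted p = 0.185), again without overlap. Its cluster neighbours differed less: Gstt2 was at 33.7 and 33.2 against 34.7 and 31.6 FPKM and Gstt3 at 44.4 and 44.5 against 50.2 and 51.2 FPKM. Aldh3b2, which oxidises fatty aldehydes, was higher at 6.33 and 7.44 FPKM against 3.53 and 3.96 FPKM (log2 0.73, SE 0.124, adjusted p = 0.131). The others among the 5 smallest p were Gsta3 (log2 0.45, adjusted p = 0.297) and Cyp2d10 (log2 -0.94, adjusted p = 0.342).

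The abundant sulfotransferases showed how this library pair differed within itself. In the St6galnac6-/- male and female Sult1a1 was at 385 and 292 FPKM against 406 and 429 FPKM, and Sult1b1 at 66.9 and 66.7 against 86.9 and 88.01 FPKM (log2 -0.32 and -0.38, limma adjusted p = 0.707 and 0.416). Sult1b1 was equally low in both sexes, whereas Sult1a1 and Sult1d1 (166 and 125 FPKM) were lower mainly in the female. Of the 72 members 27, or 37.5%, had their lowest value in the St6galnac6-/- female library, where 10.2% of all genes did. In the same 2 libraries the 11 surface colonocyte markers summed to 18926 and 15778 FPKM against 23958 and 22668 FPKM in wild-type, and the 12 crypt and proliferation markers to 180.1 and 305 against 141 and 152 FPKM. Fewer cells of a type and less RNA per cell give the same reading in bulk samples and cannot be told apart, and the part of these shifts in the members' levels was not tested.

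In B3galt5D116A 42 members were above and 30 below wild-type (median 0.064, all genes 0.0012). At an unadjusted p under 0.05 there were 15, or 20.8%, against 11.7% of all genes, 8 higher and 7 lower. The groups did not overlap for 15 higher members (20.8%, all genes 26.0%) and 14 lower ones (19.4%, all genes 25.3%), so these shares were below those of all genes. The 8 higher ones by unadjusted p were 5 Gstm genes, Gsta3, Aldh3b2 and Aldh18a1, and the 7 lower ones were 6 Cyp2 genes and Aldh1l1. The median over members was 0.24 without the B3galt5D116A male library and -0.11 without the female one.

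Gsta3, a transferase known for conjugating aflatoxin epoxide in mice, came closest of all members to the threshold. It was at 11.96 and 12.2 FPKM in wild-type against 24.9 and 23.6 FPKM in B3galt5D116A (log2 0.95, SE 0.112, adjusted p = 0.0635, 95% interval 0.69 to 1.21). St6galnac6-/- gave 16.9 and 16.8 FPKM and B3gnt7-/- 17.1 and 14.9 FPKM, so both wild-type libraries were the lowest of the 8 and both B3galt5D116A libraries the highest. Gsta3 lies on mm10 chromosome 1 from 21240589 to 21265661. It did pass when genes under a mean of 5 FPKM were left out (adjusted p = 0.0435), with no sex term (adjusted p = 0.0235) and with a robust prior variance (adjusted p = 0.0428). Gsta4, the class's most abundant member, was at 66.9 and 104 FPKM in B3galt5D116A against 64.6 and 74.99 FPKM, high in the female only.

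The Gstm cluster on chromosome 3, whose enzymes conjugate a wide range of electrophiles, summed to 514 and 514 FPKM in wild-type, male and female, against 703 and 705 FPKM in B3galt5D116A. Gstm1 was at 205 and 229.96 FPKM in wild-type against 331 and 302 FPKM in B3galt5D116A (log2 0.54, SE 0.145, adjusted p = 0.343). Gstm6 was at 16.1 and 14.97 against 24.3 and 20.2 FPKM (log2 0.49, SE 0.127, adjusted p = 0.34), and Gstm2, Gstm3 and Gstm5 had log2 differences of 0.34, 0.51 and 0.39. For these 5 genes both mutant libraries were above both wild-type ones. Gstm4 (log2 0.23) overlapped, and Gstm7 (15.7 and 12.5 against 14.9 and 14.4 FPKM) had a log2 difference of -0.061. None of them passed over all genes. The sums in the other mutants were 599 and 553 FPKM (St6galnac6-/-) and 622 and 572 FPKM (B3gnt7-/-), so all 6 mutant libraries were above both wild-type libraries.

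Of the 8 tested Cyp2d genes 7 were below wild-type in B3galt5D116A by fitted log2 difference, and Cyp2d26 was above it (23.2 and 41.9 against 21.7 and 33.9 FPKM). Cyp2d10 was at 25.5 and 26.3 FPKM in wild-type against 12.2 and 10.4 FPKM in B3galt5D116A (log2 -1.13, SE 0.255, adjusted p = 0.278), and Cyp2d22 at 6.90 and 8.03 FPKM (log2 -0.74, SE 0.155, adjusted p = 0.266). Cyp2d34, the most abundant of them, was at 101.3 and 69.6 against 115.5 and 147 FPKM (log2 -0.63, adjusted p = 0.385). Cyp2d10 did pass without the B3gnt7-/- male (adjusted p = 0.0451) or female library (adjusted p = 0.0469), which enter only the shared spread. Aldh3b2 was at 6.06 and 6.82 FPKM (log2 0.65, adjusted p = 0.248) and Aldh18a1, the first enzyme of proline synthesis, at 18.4 and 20.6 against 13.9 and 15.6 FPKM (log2 0.38, adjusted p = 0.354).

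In B3gnt7-/- 45 of 72 members were below wild-type (median -0.064, all genes -0.0095). The sign of this median rested on 1 library: it was 0.036 without the B3gnt7-/- female and -0.19 without the male. At an unadjusted p under 0.05 there were 9, or 12.5%, against 7.17% of all genes, with 3 higher and 6 lower. Both libraries lay below wild-type for 22 members (30.6%, all genes 18.6%) and above it for 10 (13.9%, all genes 16.0%). Cyp2d12 was at 8.13 and 14.5 FPKM in wild-type against 2.38 and 4.07 FPKM in B3gnt7-/- (log2 -1.52, SE 0.356, adjusted p = 0.403), the largest log2 difference of any member from wild-type. Cyp2d10 was at 8.50 and 16.02 FPKM (log2 -1.08, SE 0.255, adjusted p = 0.409) and passed without the B3gnt7-/- female library (adjusted p = 0.0359), with a log2 difference of -1.57 that then rests on the male alone. Cyp2d22 was at 7.08 and 9.81 FPKM (log2 -0.60, adjusted p = 0.443).

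Aldh1l1, which oxidises a folate-bound formyl group, was at 65.98 and 61.2 FPKM in wild-type against 33.5 and 44.5 FPKM in B3gnt7-/- (log2 -0.70, SE 0.193, adjusted p = 0.482). It was below both wild-type libraries in each of the other mutants too, at 49.04 and 52.8 FPKM in St6galnac6-/- and 52.6 and 38.4 FPKM in B3galt5D116A. Gsta3 was the fifth by p (log2 0.38, adjusted p = 0.539). Cyp2c55 was above wild-type in both B3gnt7-/- libraries, 1767 and 1542 against 1407 and 1076 FPKM (log2 0.42, SE 0.349, adjusted p = 0.842), while its neighbour Cyp2c65 split, at 205 and 90.1 against 132 and 141 FPKM.

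Among the 161 members with a position, the glucuronosyltransferase cluster Ugt1a is the only set within 5 Mb of a targeted gene: its genes begin 1.75 to 1.90 Mb from B3gnt7 on chromosome 1. Ugt1a7c was at 194 and 179 FPKM in B3gnt7-/- against 185 and 183 FPKM in wild-type (log2 0.02, adjusted p = 0.988), Ugt1a6a at 68.04 and 46.7 against 48.1 and 58.6 FPKM (log2 0.086, adjusted p = 0.966) and Ugt1a1 at 51.5 and 37.4 against 30.5 and 45.9 FPKM (log2 0.22, adjusted p = 0.928). The values of B3gnt7-/- lay within the range of the other 6 libraries for all 3 genes. Since they share their last exons, the sum over the 8 Ugt1a genes is the firmer value: 315 and 264 FPKM in B3gnt7-/-, 264 and 288 in wild-type, 289 and 214 in St6galnac6-/- and 253 and 371 FPKM in B3galt5D116A.

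The 3 comparisons share the 2 wild-type libraries, so a value that is off in wild-type enters all of them, and likeness between them is no separate evidence. With that limit, the mean of the 3 mutants was also set against wild-type. All 6 mutant libraries lay above both wild-type libraries for 5 members (6.94%, all genes 7.23%), Gsta3, Gstm1, Gstm6, Aldh3b2 and Aldh18a1, and below them for 11 (15.3%, all genes 8.32%). The lower ones were Cyp2d10, Cyp2d12, Cyp2d22, Cyp2d34, Cyp2c68, Cyp2s1, Cyp4f13, Gstt3, Sult1b1, Aldh2 and Aldh1l1. Among 14 members at an unadjusted p under 0.05 (19.4%, all genes 11.3%), the smallest p were those of Gsta3 (log2 0.59, SE 0.0913, adjusted p = 0.0953), Cyp2d22 (log2 -0.79, SE 0.126, adjusted p = 0.109), Aldh3b2 (log2 0.56, adjusted p = 0.129), Cyp2d10 (log2 -1.05, adjusted p = 0.148) and Cyp2d12 (log2 -1.23, adjusted p = 0.218). In this comparison Gsta3 passed with no sex term (adjusted p = 0.0400), and Cyp2d10 without the B3gnt7-/- male (adjusted p = 0.0386) or female library (adjusted p = 0.0154). The wild-type libraries were also the shallowest and had the lowest sums of goblet cell markers and of crypt and proliferation markers. The latter summed to 141 and 152 FPKM in wild-type against 159 to 305 FPKM in the mutants, and 12 of 12 were higher in the mean of the mutants (median log2 0.51, 6 at an unadjusted p under 0.05, none passing). The part of depth or of either marker list in these differences was not tested.

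Aldh2 had a smaller difference in the same direction in each mutant. It measured 398 and 394 FPKM in wild-type, 319 and 289.9 in St6galnac6-/-, 367 and 279 in B3galt5D116A, with 284 and 325 FPKM in B3gnt7-/-, below wild-type in 6 of 6 mutant libraries (log2 -0.36, SE 0.135, adjusted p = 0.402 for the mean of the mutants). For the Cyp2d subfamily as a whole, where assignment between its own copies matters less, the sums were 204 and 261 FPKM in wild-type, 188 and 162.8 in St6galnac6-/-, 166 and 146 in B3galt5D116A, with 144 and 173 FPKM in B3gnt7-/-. Again all 6 mutant libraries were below both wild-type ones, but the St6galnac6-/- male and the wild-type male differed by less than the wild-type libraries did from each other.

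**Figure D3:**
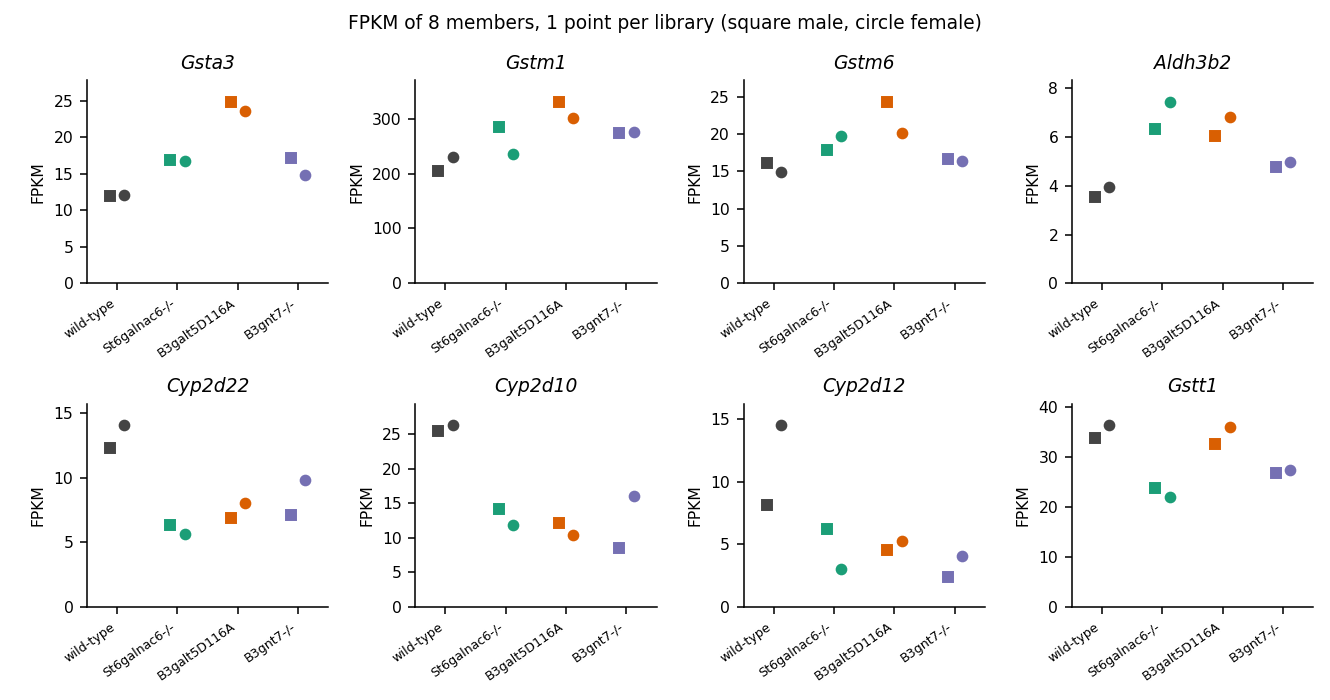
FPKM of 8 members in each library, by genotype, with squares for males and circles for females. Gsta3, Gstm1, Gstm6 and Aldh3b2 lie above both wild-type points in all 6 mutant libraries and Cyp2d22, Cyp2d10 and Cyp2d12 below them, while Gstt1 overlaps with wild-type in B3galt5D116A.

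The test for any genotype difference gave 12 members at an unadjusted p under 0.05 (16.7%, all genes 6.68%) and none at an adjusted p under 0.05 (all genes 0.0867%). The smallest limma adjusted p were 0.178 for Gsta3, 0.302 for Cyp2d22, 0.34 for Aldh3b2, 0.41 for Gstt1 and 0.506 for Cyp2d10. Cyp2d10 passed without the B3gnt7-/- male (adjusted p = 0.0460) or female library (adjusted p = 0.0398).

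The region upstream of a start site is where the sensors of this system are known to bind, so the sequences before the starts of those of the 5 genes above that have an entry in the RefSeq promoter table (GRCm38.p6) are shown: Gsta3 at chr1:21240335-21240584 on the plus strand, Gstt1 at chr10:75797732-75797981 and Cyp2d10 at chr15:82407195-82407444, both on the minus strand. Each run is the 250 bases before the start, 5′ to 3′, in lower case. The start used for Gstt1 lies inside the gene as GENCODE M21 places it (75783813 to 75798584). Its run is thus not the sequence before the outer end of that span. Capitals mark a match on either strand to TGACNNNGC, the core of the antioxidant response element bound by Nfe2l2, or GCGTG, the core bound by Ahr, 2 motifs that do not overlap here.
Gsta3: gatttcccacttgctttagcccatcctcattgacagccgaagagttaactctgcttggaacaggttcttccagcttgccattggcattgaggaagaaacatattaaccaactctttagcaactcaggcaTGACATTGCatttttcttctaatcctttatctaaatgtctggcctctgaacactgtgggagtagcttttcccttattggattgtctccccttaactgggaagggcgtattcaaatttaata
Gstt1: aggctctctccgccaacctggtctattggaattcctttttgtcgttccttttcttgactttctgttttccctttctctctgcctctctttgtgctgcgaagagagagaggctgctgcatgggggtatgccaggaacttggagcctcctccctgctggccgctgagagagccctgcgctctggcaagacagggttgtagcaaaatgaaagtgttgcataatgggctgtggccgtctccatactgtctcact
Cyp2d10: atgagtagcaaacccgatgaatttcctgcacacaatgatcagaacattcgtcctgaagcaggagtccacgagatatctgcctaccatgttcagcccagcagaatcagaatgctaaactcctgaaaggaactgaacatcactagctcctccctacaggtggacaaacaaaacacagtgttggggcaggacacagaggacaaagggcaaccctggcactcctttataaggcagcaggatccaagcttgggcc
Gsta3 holds 1 match to TGACNNNGC, which begins 121 bases before the start, and the other sequences hold none to either motif. Of the 61 members above 1 FPKM with an entry, 5 (8.20%) held TGACNNNGC (Gsta3, Gstm5, Gstm7, Aldh9a1 and Cyp4f14) and 16 (26.2%) held GCGTG. A gene with several starts counted if any of its windows matched, so it had more chances to match. Gstm7 and Cyp4f14 have several windows and held TGACNNNGC in only 1 of them. Over all genes with an entry the shares were 11.5% and 30.9%, and over the 8810 genes above 1 FPKM 14.3% and 50.8%. Such a match is a description of the letters only. Of the 3 carriers among the transferases, Gsta3 and Gstm5 were higher in both B3galt5D116A libraries and Gstm7 was not, and Gstm1 and Gstm6 hold no TGACNNNGC in these windows.

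Between the mutants, no member passed. B3galt5D116A was above B3gnt7-/- for 54 of 72 members (median 0.14, all genes 0.015), with 7 members at an unadjusted p under 0.05 (9.72%, all genes 4.2%; at adjusted p under 0.05, 0.00867% of all genes), all higher in B3galt5D116A: Gsta3 (log2 0.57, adjusted p = 0.77), Gstm5, Gstm6, Gstm2, Gstt1, Gstt2 and Aldh3b2. St6galnac6-/- was below B3galt5D116A for 56 members (median -0.20, all genes -0.0031), 5 of them at an unadjusted p under 0.05 (6.94%, all genes 3.51%; at adjusted p, 0.026%). These were Gstt1 (log2 -0.56, adjusted p = 0.586), Gsta3 (log2 -0.50, adjusted p = 0.747), Aldh1a7 and Gstm5, lower in St6galnac6-/-, and Cyp2d37-ps, higher. Gstt1 was thus at 23.8 and 21.9 FPKM in St6galnac6-/- and 26.8 and 27.3 FPKM in B3gnt7-/-, against 32.6 and 35.9 FPKM (B3galt5D116A) and 33.7 and 36.3 FPKM (wild-type). Between St6galnac6-/- and B3gnt7-/- 2 members were at an unadjusted p under 0.05 (2.78%, all genes 3.81%; at adjusted p, 0.0433%), Aldh3b2 (log2 0.42, adjusted p = 1) and Cyp2d22 (log2 -0.43, adjusted p = 1).

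Summed by family, the libraries of 1 genotype often differed more from each other than genotypes did. The Cyp2 sum, mostly Cyp2c55, was 1943 and 1694 FPKM in wild-type, 1788 and 1214 in St6galnac6-/-, 1409.7 and 2266 in B3galt5D116A, with 2257 and 1983 FPKM in B3gnt7-/-. The Aldh sum was 934 and 980.4, 881 and 768, 914 and 986 and 844 and 837 FPKM in the same order, and the Sult sum 786 and 810.3, 727 and 574, 676 and 878 and 808 and 600.02 FPKM. Gsta sums were 86.4 and 101.0 FPKM in wild-type against 107 and 150.5 FPKM in B3galt5D116A, and Gstp sums 235 and 227 against 219 and 314 FPKM. Besides Gstm, the Gstt family was even within genotypes: 119 and 119 FPKM in wild-type, 102 and 99.6 in St6galnac6-/-, 117 and 119 in B3galt5D116A, with 103 and 97.8 FPKM in B3gnt7-/-. For Gstt, both St6galnac6-/- and both B3gnt7-/- libraries were thus below all libraries of the other genotypes. The Cyp4 sums, 211 and 236, 217 and 166, 204 and 239.6 and 235 and 191 FPKM, and the Ugt2 sums, 262 and 278, 266 and 211, 249 and 291 and 250.2 and 249.9 FPKM, overlapped between B3galt5D116A and wild-type. All members together made up 0.838% to 1.11% of a library's FPKM.

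**Figure D4:**
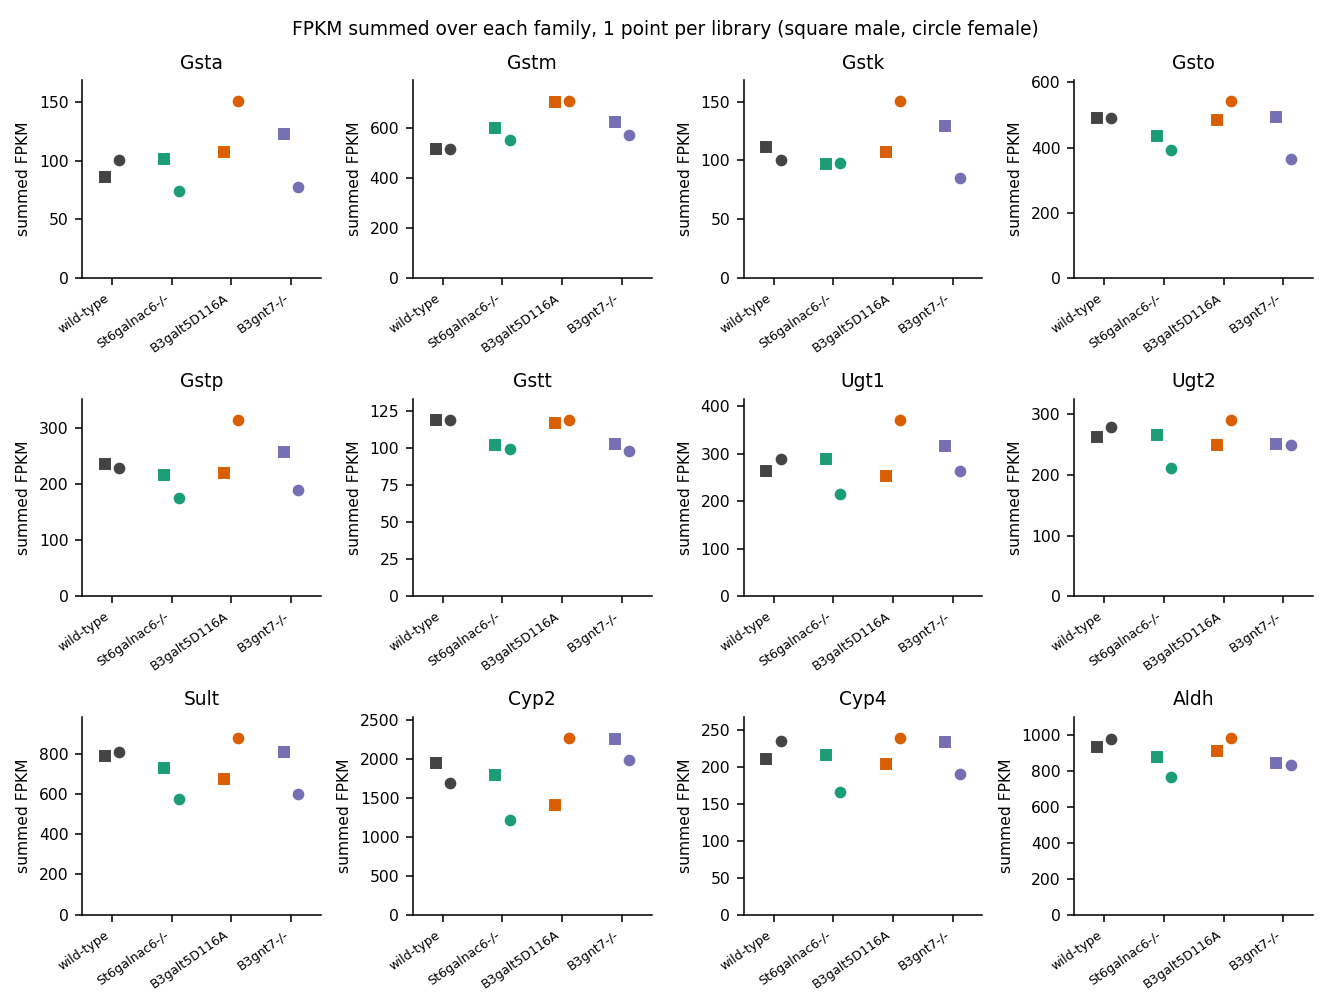
FPKM summed over each of 12 families in each library, by genotype, with squares for males and circles for females. Gstm sums are higher in all 6 mutant libraries than in wild-type, and in most other panels the B3galt5D116A female stands high and the St6galnac6-/- female low.

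Part of the spread followed single libraries. The B3galt5D116A female was the highest of the 8 for 31 members (43.1%, all genes 20.3%) and the wild-type female for 20 (27.8%, all genes 11.6%). Cyp2c55 was at 945 and 1775 FPKM in B3galt5D116A (male, then female), Aldh1a1 at 134 and 272 FPKM, Gstk1 at 107 and 150.1 FPKM and Sult1d1 at 156 and 244 FPKM, each with the female far above the male. In B3gnt7-/- the male was the higher one for Aldh1a1 (173 and 129 FPKM), Gstk1 (129 and 85.2 FPKM) and Sult1d1 (224 and 139 FPKM). Another set ran the opposite way. In the same order of sexes Cyp2c68 was at 68.3 and 31.2 FPKM in B3galt5D116A but 34.03 and 64.5 FPKM in B3gnt7-/-, and Cyp2f2, known from lung, at 15.8 and 6.49 and 6.59 and 15.7 FPKM.

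The sum of the position markers moved with these values. The 6 posterior Hox genes measured, which mark the distal colon, summed to 256 and 226 FPKM in wild-type, 221 and 242 in St6galnac6-/-, 245 and 159 in B3galt5D116A, with 154 and 219 FPKM in B3gnt7-/-. The sum was lowest in the B3galt5D116A female and the B3gnt7-/- male, the libraries with the highest Cyp2c55 and lowest Cyp2c68. Most of it was Hoxb13, at 139 and 129 FPKM there. Hoxa13 and Hoxd10 were also lowest in these 2 libraries, but the other Hoxd genes did not keep this order. Hoxd11 was lowest in the St6galnac6-/- female (1.15 FPKM). Hoxd12 was at 0.668 FPKM in the B3galt5D116A female against 0.547 FPKM in the wild-type female. Hoxd13 was at 13.6 FPKM in the B3gnt7-/- male against 13.5 FPKM in the wild-type female. The surface colonocyte markers summed to 21453 and 30068 FPKM in B3galt5D116A, with 25407 and 18107 FPKM in B3gnt7-/-, again highest in these 2 libraries. This rank of the sum rested on Car1, at 16569 and 12186 FPKM there. The 10 surface markers without Car1 summed to 13499 FPKM in the B3galt5D116A female and 13222 FPKM in the B3gnt7-/- male, below wild-type at 15961 and 14876 FPKM. Among these 10, Tmigd1 was also highest in the 2 libraries, at 105.9 and 78.9 FPKM against 40.7 to 54.9 FPKM in the others. Slc26a3, Car4, Ceacam20, Guca2a and Lypd8 were below both wild-type libraries there. Whether the stretch of colon sampled has a part in the members' levels was not tested. Gsta3, Gstm1, Aldh3b2 and Cyp2d22 did not follow this order. Their male and female B3galt5D116A values were 24.9 and 23.6, 331 and 302, 6.06 and 6.82 and 6.90 and 8.03 FPKM. Other members lower than wild-type in every mutant library had their 2 lowest values in the B3galt5D116A female and the B3gnt7-/- male. Besides Cyp2c68 these were Cyp2d10 (10.4 and 8.50 FPKM), Cyp2d34 (69.6 and 80.5), Aldh1l1 (38.4 and 33.5) and Aldh2 (279 and 284 FPKM). For Cyp2d12, Cyp2d22, Cyp2s1, Cyp4f13, Gstt3 and Sult1b1, also lower in every mutant library, this was not so.

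**Figure D5:**
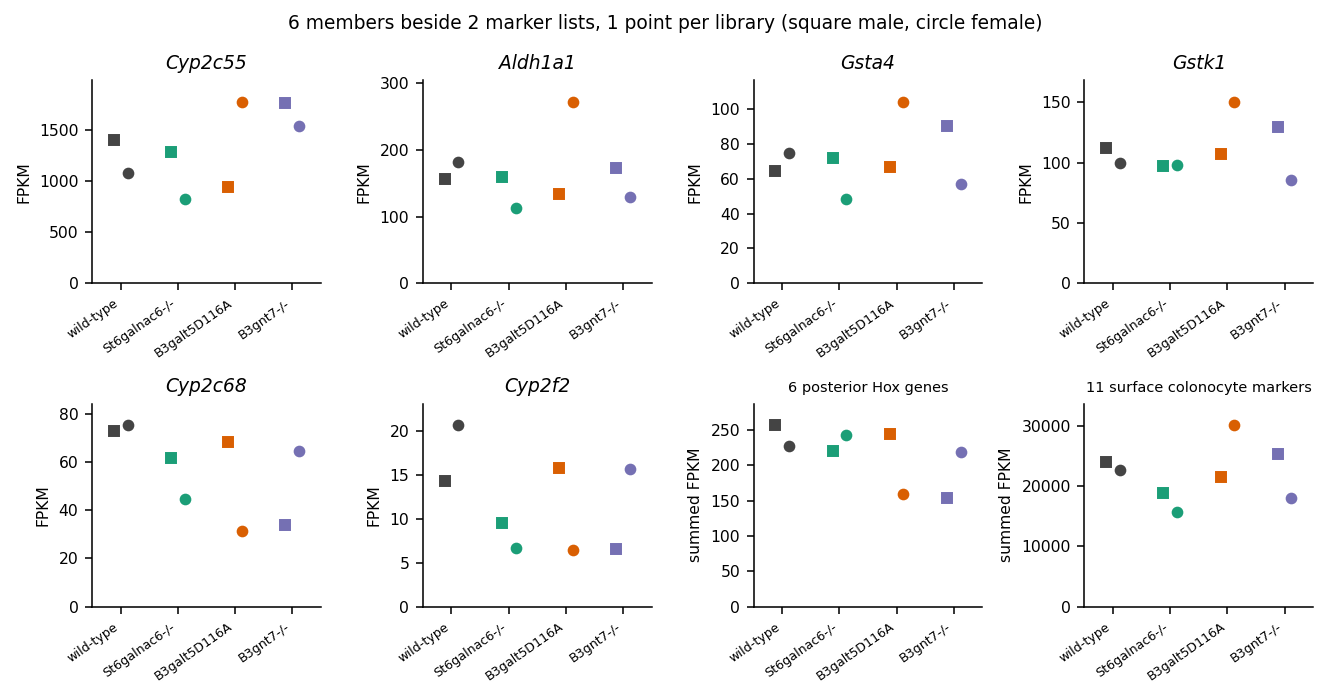
FPKM of 6 members, and FPKM summed over 6 posterior Hox genes and 11 surface colonocyte markers, in each library by genotype, with squares for males and circles for females. Cyp2c55 is highest and Cyp2c68 and the Hox sum are lowest in the B3galt5D116A female and the B3gnt7-/- male.

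Males and females were compared over 4 libraries each. None of the 72 members passed (all genes 0.052%), and 0 were at an unadjusted p under 0.05 (all genes 1.66%), with a median log2 difference of 0.038 against 0.0099 over all genes. The smallest p belonged to Aldh3b2 (log2 -0.13, SE 0.0879, adjusted p = 1), Aldh1a7 (log2 -0.16, adjusted p = 1), Cyp2d22 (log2 -0.16, adjusted p = 1), Sult1c2 (log2 0.18, adjusted p = 1) and Cyp2r1 (log2 0.25, adjusted p = 1). Mutant differences had opposite signs in males and females for 31 members in St6galnac6-/-, 30 in B3galt5D116A and 29 in B3gnt7-/-. The same share was not computed over all genes, so these counts show nothing particular to the members. With 1 library for each combination, no interaction term could be fitted.

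Other genes of the same system gave no calls against wild-type. Of 34 tested oxidoreductases and hydrolases (Por, Fmo, Ces, Akr, Adh and others), 17 conjugation and cofactor genes, 20 Nrf2 targets, 18 sensors and regulators and 14 transporters, 0 passed the limma test in any of the 3 mutants. In St6galnac6-/- their medians were -0.19, -0.11, -0.065, -0.15 and -0.17 on the log2 scale, against 0.0030 over all genes. In B3galt5D116A they were 0.055, -0.019, 0.051, -0.11 and 0.035, and in B3gnt7-/- -0.068, -0.01, -0.031, -0.059 and 0.067. At an unadjusted p under 0.05 stood 9, 8 and 6 of these 103 genes in St6galnac6-/-, B3galt5D116A and B3gnt7-/-. These are 8.74%, 7.77% and 5.83%, below the 9.04%, 11.7% and 7.17% of all genes.

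The sensor Nr1i3 had the smallest p of the regulators in each mutant. It measured 2.24 and 3.04 FPKM in wild-type, 0.983 and 0.879 in St6galnac6-/-, 1.04 and 0.881 in B3galt5D116A, with 0.971 and 2.17 FPKM in B3gnt7-/- (log2 -0.91, SE 0.244, adjusted p = 0.342 in St6galnac6-/-). All 6 mutant libraries were below both wild-type ones. The related sensor Nr1i2 was at 49.9 and 52.7 FPKM in wild-type, with 43.5 to 51.7 FPKM in the mutants, and Nfe2l2 at 161 and 149.8 against 111 to 152 FPKM. Among Nrf2 targets Gpx2, a glutathione peroxidase of the gut epithelium, measured 295 and 273 FPKM in wild-type, 394 and 447 in St6galnac6-/-, 449 and 533 in B3galt5D116A, with 390.4 and 295 FPKM in B3gnt7-/- (log2 0.78, SE 0.184, adjusted p = 0.291 in B3galt5D116A). Nqo1, a quinone reductase, was at 41.4 and 38.3 FPKM in wild-type against 45.8 and 69.1 FPKM in B3galt5D116A (log2 0.49, adjusted p = 0.46), and Gclc, which starts glutathione synthesis, at 43.5 and 46.8 against 37.3 and 36.5 FPKM (log2 -0.28, adjusted p = 0.416). The Gstm sum and Gpx2 were thus higher in B3galt5D116A while Gclc was lower, and neither Gpx2, Gclc nor any Gstm gene passed. Of the 20 Nrf2 targets tested, 16 were above wild-type in B3galt5D116A, with a median log2 difference of 0.051 against 0.0012 over all genes. By the limma test 1 higher and 1 lower target were at an unadjusted p under 0.05. The exporter Abcc1 had the smallest p of the transporters (log2 -0.32, adjusted p = 0.463 in St6galnac6-/-, log2 -0.34, adjusted p = 0.376 in B3galt5D116A and log2 -0.31, adjusted p = 0.634 in B3gnt7-/-).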

How the data were processed

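RNA was isolated with a miRNeasy Micro kit and prepared for sequencing with a stranded mRNA kit (TruSeq), per the labels' protocols. Cuffdiff 2.2.1, TopHat2 2.1.1, Bowtie2 2.2.8, SAMtools 0.1.18 and the build mm10 stand in the submitters' processing notes. Parameters, annotation and the scaling between libraries are not given in the sources used here. The authors deposited 1 table of FPKM values per library, per the file headers. These are not counts, so no count test was run.

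From these values log2(FPKM + 1) was computed. Genes whose mean reached 1 FPKM were fitted with limma 3.58.1 in R 4.3.3 (trend=TRUE) over all 8 libraries, in a model of genotype plus sex, leaving 3 residual and 4.02 prior degrees of freedom. Tests were two-sided and adjusted by Benjamini-Hochberg over all 11537 genes, and were tested on simulated data. An exact permutation test of 2 against 2 libraries cannot go below p = 0.333. The members and lists were chosen with earlier results of these data known. Named members are the 3 highest of each family, those past the threshold or the 5 of smallest p in each comparison, those within 5 Mb of a targeted gene, and others that stand beside them, chosen after their values were seen. Of the other lists, up to 3 genes by smallest p were eligible. Positions come from GENCODE M21 (mm10) by symbol for 161 members.

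The alternatives were other pseudocounts (0.1 and 5), no filter or a mean of 5 FPKM, quantile normalization, median centring, no sex term (no genotype term for sex), only the genotypes compared, a robust prior variance, and leaving out every library in turn.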

Additional observations from a re-analysis of the deposited data

How the results depend on the processing

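The labels give no replicate numbers. No paired analysis was run, beyond sex as a term. Of 150 alternative counts of members called, 135 stayed at 0 and 15 became 1. With no filter on low values Cyp2d40 was called in St6galnac6-/- against wild-type, against B3galt5D116A and against B3gnt7-/- and for any genotype difference (count 1 each, adjusted p = 0.0267, 0.0444, 0.0444 and 0.0493). It was at 0.0944 and 0.0844 FPKM in the St6galnac6-/- male and female and listed at 0 in the other 6 libraries. In B3galt5D116A against wild-type the count was 1, Gsta3, with a mean of at least 5 FPKM, with no sex term and with a robust prior variance, and with no sex term also for the mean of the mutants. Leaving out 1 library gave 0 to 1 for B3galt5D116A, for B3gnt7-/-, for the mean of the mutants and for any genotype difference, the 1 being Cyp2d10 without a B3gnt7-/- library, and 0 elsewhere; the cause was not tested. The median over members ran from -0.11 to 0.24 in B3galt5D116A and from -0.16 to 0.035 for the mean of the mutants over libraries left out, the lowest of the latter without the wild-type male, and from -0.19 to 0.036 in B3gnt7-/-. The other 60 alternative medians moved by less than 1 SD of the male and female values. That SD comes from only 2 values, so staying within it does not show that a median was stable. In St6galnac6-/- the median ran from -0.36 to -0.020 over libraries left out. With no filter, where the many members at or near 0 enter, all 4 medians against wild-type were 0. Of 490 values of single members 481 kept their direction and their side of the threshold, and 9 kept their direction and passed it, all of Gsta3 or Cyp2d10. None turned. Where a group is left with 1 library, it is assumed to vary like the other groups. With 2 libraries a genotype and depth known only roughly, small differences cannot be resolved.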
